A study of Homo sapiens with 24 samples.

Results

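Untreated A2780cis cells harvested 12 h after a change of medium were compared with untreated A2780cis cells harvested 6 h after it, to describe which genes moved with time in culture when no drug was added. The libraries were taken by their labels, which name 3 A2780cis controls at each time, so that 6 of the 24 libraries of the series entered the comparison. A2780 is an established human ovarian cancer cell line, and A2780cis is its cisplatin-resistant derivative, kept resistant by 1 µM cisplatin given for a passage at intervals. For the experiment the cells were seeded in flasks, A2780cis more densely than A2780, in RPMI1640 with 10% FCS and 2 mM glutamine, and 48 h later the medium was replaced by the same standard medium for 6 h or 12 h. The remaining libraries were untreated A2780 cells at 6 h and 12 h, with which the A2780cis change was compared, and both lines treated with 1 µM 5-FdU-ECyd, a nucleoside analogue duplex drug, which only helped to estimate the variance between replicates. Each group held 3 replicates of a single line, so n counts cultures and not independent isolates of resistant cells. The 6 h and 12 h libraries are separate harvests; the libraries were pooled for sequencing, but no date or batch of RNA extraction or library preparation is given. Time in culture and a batch shared by the libraries of 1 time therefore cannot be told apart, and fewer cells expressing a gene cannot be told apart from less RNA of it per cell.

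The A2780cis libraries held 12092593, 11077368 and 14109992 counts at 6 h and 21366058, 17628534 and 18277766 counts at 12 h, so every 12 h library was deeper than every 6 h library (exact permutation test, two-sided, p = 0.1, the smallest value that 3 against 3 allows). Levels are given as CPM, the counts of a gene scaled to a common library size after TMM normalization. Of the markers of ovarian epithelium, PAX8, WT1, MUC16, MSLN and KRT7 were at or near 0 in all 6 libraries and EPCAM did not exceed 0.491 CPM. The epithelial markers CDH1, KRT19, CLDN3 and CLDN4 did not exceed 0.0818, 0.0561, 0.108 and 0.491 CPM. The simple epithelial keratins KRT18 and KRT8, in contrast, lay between 20.6 and 26.6 and between 3.82 and 6.80 CPM, and the mucin MUC1 between 3.21 and 5.51 CPM. The mesenchymal intermediate filament VIM lay between 2243 and 2769 CPM and the transcription factor ZEB1, a repressor of epithelial genes, between 49.0 and 83.9 CPM. Of the other mesenchymal markers, SNAI2 lay between 25.8 and 42.9 CPM and the cadherin CDH2 between 3.85 and 7.42 CPM. SNAI1 lay between 2.01 and 3.78 CPM, and ZEB2 and TWIST1 did not exceed 0.0561 and 0.185 CPM. The leukocyte genes PTPRC and CD3E, the endothelial genes PECAM1 and CDH5 and the globin HBB had 0 counts in all 6 libraries. The label of an ovarian line was thus met by a mixed pattern of epithelial and mesenchymal markers, in which the defining markers of ovarian epithelium were at or near 0.

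A change of medium renews serum, nutrients and hormones. Serum growth factors act through the MAPK cascade and the serum response factor SRF on immediate early genes such as EGR1, whose transcripts appear within minutes and are short-lived. Sterols in serum act on the SREBP transcription factors, which control the genes of cholesterol synthesis, and growing cells pass through the cell cycle and change the density of the culture. In RNA sequencing, the yield of a transcript also depends on its GC content and on its length, and this dependence can differ from library to library. For this reason changes are given both without a correction and with offsets that remove, in each library, a smooth trend of the counts on exonic GC content and on exon length.

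Without offsets, 8083 of 20240 genes tested passed the threshold (adjusted p of at most 0.05, edgeR), which is 39.9% of them. Of these, 3650 genes (18%) were higher and 4433 (21.9%) were lower at 12 h. The direction of many small changes hung on the scaling. The median log2 fold change (log2 FC) of all genes was −0.09 with TMM and 0.06 with scaling by library size alone, and library size alone called 4686 genes higher and 1598 lower, 74.6% higher against 45.2% with TMM. The large changes were mainly increases, with 1279 genes up-regulated and 120 down-regulated by at least 1 on the log2 scale. The CPM of the 3 libraries at 12 h did not overlap that of the 3 libraries at 6 h for 9898 genes (48.9%). Leaving out A2780cis 12 h replicate 3 reduced the number of genes past the threshold to 4985.

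These changes followed the GC content of the genes. Spearman's rho between the exonic GC content and the log2 FC was 0.67 over 19889 annotated genes and 0.74 over the 13881 protein-coding genes among them, given as a description because genes share their libraries and are not replicates. When the genes were ordered by GC content and split into 10 classes of equal size, the median log2 FC rose steadily from −0.37 in class 1 (23.1% to 38.7% GC) over −0.20 in class 5 and 0.06 in class 7 to 0.99 in class 10 (60.9% to 85.5% GC). In class 1, 0.151% of genes were higher and 47.8% lower at 12 h, whereas in class 10 it was 71.4% higher and 0.101% lower. Untreated A2780 cells had the same form of trend, with class medians from −0.31 to 0.71 and a rho of 0.65.

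The trend was also visible in each library on its own. As a GC contrast, the log2 CPM of each gene was set against its mean over all libraries, and the median deviation of class 1 was subtracted from that of class 10. It was −0.52, −0.82 and −0.57 in the A2780cis libraries of 6 h and 0.30, 0.72 and 1.04 in those of 12 h, that is −0.64 ± 0.16 and 0.69 ± 0.37 (SD, n = 3), without overlap. The difference of 1.33 had an exact two-sided permutation p of 0.1, the smallest that 3 against 3 libraries allow. In A2780 the contrast went from −1.29, −0.86 and −0.53 at 6 h to −0.07, 0.03 and 0.30 at 12 h, a difference of 0.98 (exact permutation p = 0.1). The GC contrast differed among the 12 h replicates of A2780cis by more than it differed among the 6 h replicates, and A2780cis 12 h replicate 3, the library on which the number of calls depended most, had the highest value of the 12 untreated libraries.

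**Figure D1:**
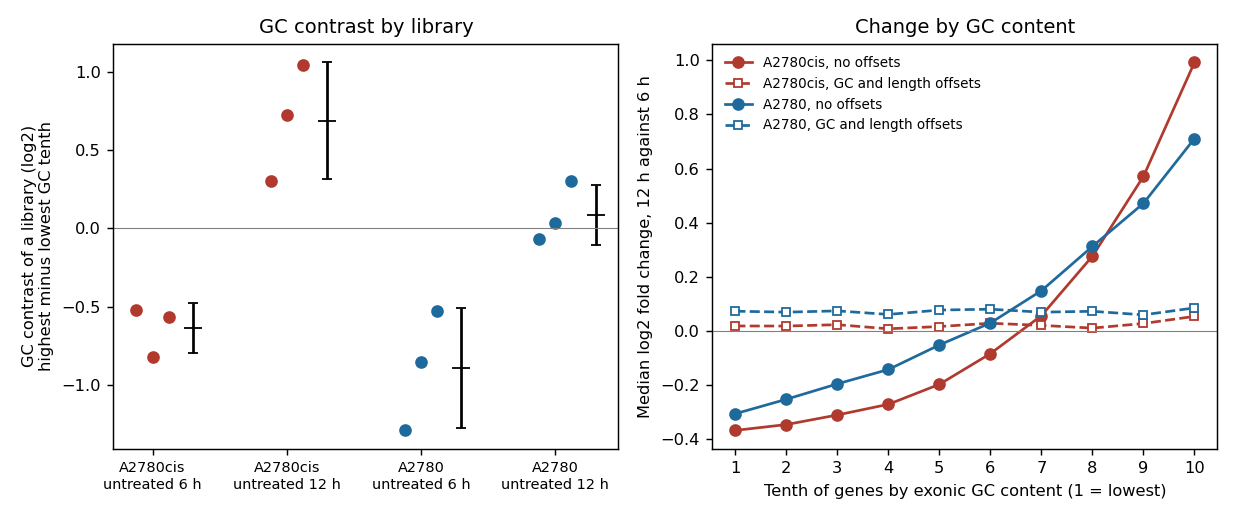
Left, the GC contrast (log2, highest minus lowest GC class) of each untreated library as a point, with the mean ± SD of 3 libraries beside it. Right, the median log2 FC of 12 h against 6 h in each of 10 classes of genes ordered by exonic GC content, for A2780cis (red) and A2780 (blue), without offsets (solid lines) and with GC and length offsets (dashed lines). All 12 h libraries of a line lie above all its 6 h libraries, and the A2780cis line climbs from −0.37 to 0.99 without offsets.

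Without offsets, the change depended much less on exon length than on GC content. Spearman's rho between the summed exon length and the log2 FC was −0.03, and the class medians over 10 classes of exon length ran from −0.14 for the shortest over 0.00 to −0.17 for the longest genes. Over the genomic span of a gene, introns included, rho was −0.12. Among the 13881 protein-coding genes, rho was −0.11 for exon length and −0.25 for genomic span. Long and short genes of like GC content moved in the same direction, with longer genes somewhat higher at middle and high GC content. Among genes of low GC content the medians of short, middle and long genes (3 classes each) were −0.33, −0.37 and −0.33. They were −0.20, −0.16 and −0.07 at middle GC content, and 0.45, 0.53 and 0.59 at high GC content. The length contrast of the libraries did not separate the times either (difference −0.01, exact permutation p = 0.8). Offsets on length alone left 8154 genes past the threshold and a rho with GC content of 0.65, whereas offsets on GC content alone left 2656 and a rho of 0.01. With GC offsets alone a weak trend on exon length became visible, with a rho of 0.15 and class medians from −0.03 to 0.10, and the length offset was kept for this reason.

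**Figure D2:**
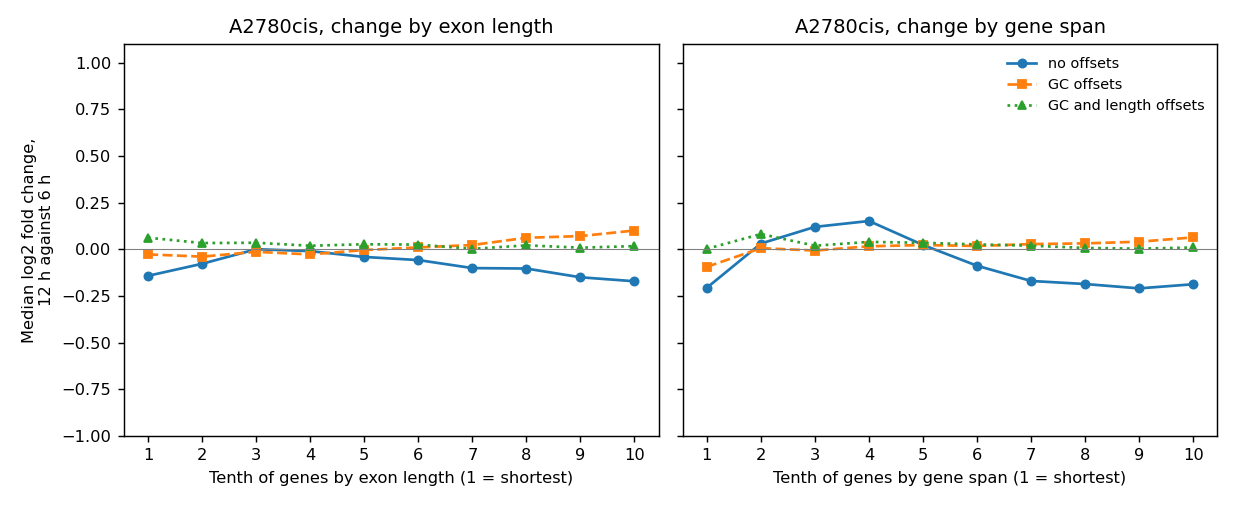
Median log2 FC of A2780cis at 12 h against 6 h in 10 classes of genes ordered by summed exon length (left) and by genomic span (right), without offsets, with GC offsets and with GC and length offsets. The lines stay between −0.21 and 0.15, on a wider vertical axis than that of the GC plot.

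With GC and length offsets, 2763 genes (13.7%) passed the threshold, 1566 (7.74%) higher and 1197 (5.91%) lower at 12 h, with a median log2 FC of 0.02 over all genes. Of the 8083 genes called without offsets, 1715 were also called in the same direction with them and 120 in the opposite one, and 928 genes were called only with offsets. A change by at least 1 on the log2 scale was left in 193 genes that rose and 58 that fell. An offset removes the smooth trend on GC content, and cannot separate a library effect from a biological one that happens to follow it. Calls with offsets were still more frequent among GC-rich genes. In GC class 1, 4.12% of genes were higher and 3.22% lower with offsets, and in class 10 it was 14.5% and 10.9%. The shares of all genes given beside the lists are not matched for GC content. Leaving out 1 library reduced the number with offsets to between 1359 (without A2780cis 12 h replicate 3) and 2698. Without A2780cis 12 h replicate 2 it was 1733.

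The genes with the largest increases without offsets lay at the GC-rich end of the scale, and those with the largest decreases between its low end and its middle. The 15 largest increases among well-expressed protein-coding genes without overlap of the groups had a GC content between 58.7% and 72.8%, and the 15 largest decreases one between 33.2% and 48.2%. The increases were those of PRR19 (log2 FC 2.33), FAM174C (2.27), SLC22A31 (2.20), PIDD1 (2.20), LAMA5 (2.19), OPLAH (2.19), ATP5F1D (2.18), NME3 (2.18), ICAM5 (2.16), CTXN1 (2.16), PLEC (2.14), RHPN1 (2.14), ENSG00000248235 (2.13), DOHH (2.07) and CRIP2 (2.06). The decreases were those of HTR2B (−1.36), PI15 (−1.27), POU1F1 (−1.21), CTNNA3 (−1.04), L3MBTL3 (−1.01), SAXO2 (−0.98), WDR72 (−0.97), KITLG (−0.91), KBTBD8 (−0.91), MMP3 (−0.90), ZNF684 (−0.89), SNX16 (−0.89), KLF10 (−0.88), SH3BGR (−0.86) and MAT2A (−0.85). All 30 kept their direction and their call with offsets, with smaller values, although 4 of the decreases (PI15, CTNNA3, SAXO2 and KBTBD8) lost the call with offsets in 1 or 3 of the 6 fits without 1 library.

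These genes were picked for groups that do not overlap, so the separation of their values is no result. ATP5F1D (chr19, GC content 64.96%), the delta subunit of the mitochondrial ATP synthase, was measured at 9.52, 6.12 and 12.2 CPM at 6 h and at 34.5, 42.5 and 50.2 CPM at 12 h. Its log2 FC was 2.18 (SE 0.29, adjusted p = 2.35e-05) without and 1.142 (SE 0.15, adjusted p = 3.19e-05) with offsets. MMP3 (GC content 45.1%), a secreted matrix metalloproteinase, fell from 3948, 3688 and 4482 CPM to 2387, 2119.6 and 1989 CPM. The log2 FC of MMP3 was −0.90 without and −0.56 with offsets (adjusted p = 2.3e-05). KITLG, the ligand of the receptor tyrosine kinase KIT, fell from 409.8, 419.7 and 375 CPM to 242, 210.5 and 187 CPM, a log2 FC of −0.91 without and −0.54 with offsets (adjusted p = 0.000126). MAT2A, the enzyme that makes S-adenosylmethionine from methionine, had close replicates, with 813, 795 and 807 CPM at 6 h against 479, 428 and 429 CPM at 12 h. Its log2 FC of −0.85 became −0.56 with offsets (adjusted p = 1.18e-05). HTR2B, a serotonin receptor, went from 17.6, 14.5 and 17.1 CPM to 7.13, 6.74 and 5.29 CPM, a log2 FC of −1.36 without and −0.89 with offsets (adjusted p = 7.14e-05). In A2780, where MMP3 (83.3 to 88.2 CPM at 6 h) and KITLG (23.2 to 27.9 CPM) were far lower than in A2780cis, neither passed the threshold with offsets, and no difference between the lines was called for either of them.

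Of the long non-coding RNAs, the largest increases were those of ENSG00000259952 (2.10), ENSG00000231864 (1.94) and ENSG00000260005 (1.91), and the largest decreases those of LINC02303 (−1.19), LINC02941 (−1.18) and TLR8-AS1 (−1.16). LINC02303 on chromosome 14 fell from 84.8, 77.2 and 94.9 CPM to 41.9, 36.8 and 33.7 CPM and kept a log2 FC of −0.75 with offsets (adjusted p = 4.95e-07). LINC02941 did not pass the threshold with offsets (log2 FC −0.72, adjusted p = 0.0691).

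The immediate early and AP-1 genes, transcription factors and feedback inhibitors that answer growth factor signals, were lower at 12 h as far as they moved with offsets. Of 31 members tested, 1 was higher and 7 lower without offsets (median −0.05), against 18% and 21.9% of all genes, and 0 were higher and 13 lower with offsets (median −0.32), against 7.74% and 5.91% of all genes. With scaling by library size alone it was 4 higher and 4 lower, where 4686 and 1598 of all 20240 genes were. The serum response factor binds to a sequence known as the CArG box, and the promoters of EGR1 and of SRF itself are shown because both hold it in the 300 bases around the start site. They are 300 bases from RefSeq (GRCh38.p14, plus strand), EGR1 at chr5:138465229-138465528 and SRF at chr6:43171019-43171318, with the CArG boxes in capitals.
EGR1: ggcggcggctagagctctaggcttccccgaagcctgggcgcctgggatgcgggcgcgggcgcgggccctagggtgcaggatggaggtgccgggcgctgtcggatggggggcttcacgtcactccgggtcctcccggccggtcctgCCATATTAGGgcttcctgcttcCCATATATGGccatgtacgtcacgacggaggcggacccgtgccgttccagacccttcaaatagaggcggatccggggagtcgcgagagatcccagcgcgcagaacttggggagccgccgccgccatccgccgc
SRF: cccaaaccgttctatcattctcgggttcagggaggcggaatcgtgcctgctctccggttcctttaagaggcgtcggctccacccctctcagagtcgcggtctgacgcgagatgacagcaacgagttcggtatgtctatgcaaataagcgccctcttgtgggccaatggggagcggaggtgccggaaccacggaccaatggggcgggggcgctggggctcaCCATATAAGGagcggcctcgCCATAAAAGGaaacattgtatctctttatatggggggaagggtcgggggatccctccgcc
The EGR1 promoter has CArG boxes that begin at −105 and −83 from the start site, and the SRF promoter boxes that begin at −30 and −10. A CArG box, a palindromic motif that reads on both strands, was found in 351 of 27305 promoters of this length (1.285%), in 124 of 12062 promoters of tested genes (1.028%) and in 2 of the 23 promoters that matched a member of the list, which is a description of these windows and not a sign of binding.

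EGR1 (GC content 55.3%), a zinc finger transcription factor, was measured at 43.2, 62.0 and 52.1 CPM at 6 h and at 29.9, 33.9 and 35.3 CPM at 12 h. The groups did not overlap, and the log2 FC was −0.67 (SE 0.12, adjusted p = 0.000177) without and −0.88 (SE 0.11, adjusted p = 2.32e-05) with offsets. Its relative EGR2 went from 18.5, 22.7 and 18.3 CPM to 13.4, 13.4 and 14.7 CPM, with a log2 FC of −0.52 without and −0.68 with offsets (adjusted p = 0.000337). EGR3 fell from 3.88, 8.02 and 4.74 CPM to 2.84, 2.64 and 4.16 CPM (log2 FC −0.78 and −0.97), with overlap of the groups, and the call was lost without A2780cis 6 h replicate 2 (log2 FC −0.64 with offsets, adjusted p = 0.0574). The 3 EGR genes thus moved together in A2780cis, although EGR2 and EGR3 missed the threshold with scaling by library size alone.

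KLF10, a transcription factor induced by TGF-beta and by growth factors, had 42.6, 41.7 and 39.1 CPM at 12 h against 78.8, 84.4 and 63.8 CPM at 6 h (log2 FC −0.88 without and −0.68 with offsets, adjusted p = 0.00016). SPRY4, a feedback inhibitor of receptor tyrosine kinase signalling, changed from 231, 297 and 219.9 CPM to 169.8, 193 and 201 CPM, and DUSP6, the phosphatase that inactivates ERK, from 415, 448 and 458 CPM to 312, 323 and 313 CPM. Both fell without overlap of the groups. With offsets the log2 FC of SPRY4 was −0.50 (adjusted p = 0.000126) and that of DUSP6 −0.24 (adjusted p = 0.04), and the call of DUSP6 was lost in each of the 6 fits that left out 1 library. SPRY4 missed the threshold with scaling by library size alone (log2 FC −0.24, adjusted p = 0.101).

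For 4 GC-rich members the sign or the call depended on the offsets. JUND (GC content 69.9%), an AP-1 subunit, had 14.4, 17.2 and 15.3 CPM at 6 h and 16.4, 19.1 and 19.5 CPM at 12 h, overlapping values with a log2 FC of 0.23 (adjusted p = 0.149), which became −1.08 (adjusted p = 0.000286) with offsets. IER2 went from 0.07 (adjusted p = 0.745) to −0.69 and SRF from 0.27 (adjusted p = 0.093) to −0.44, whereas JUNB, which rose by 1.23 on the log2 scale without offsets, had a log2 FC of 0.20 (adjusted p = 0.459) with them. Without offsets SRF was called higher under 5 alternatives (library size alone, no filter, thinning, the compared libraries alone and without A2780cis 12 h replicate 1, log2 FC 0.32 to 0.44, adjusted p between 0.0213 and 0.0475), and JUND under library size alone (log2 FC 0.40, adjusted p = 0.0348), both opposite to the calls with offsets. The counts of JUND, IER2 and SRF thus rose less than those of other genes of like GC content, as did those of many genes with a single exon block. Of well-expressed protein-coding genes with more than 60% GC, the 36 with 1 exon block had a median log2 FC of 0.40 and the 1233 with more blocks one of 0.94, and with offsets 22 of the 36 (61.1%) and 180 of the 1233 (14.6%) were called lower. JUND has a single exon block. This split was chosen after the values had been seen, and its part in the immediate early result was not tested.

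Among the genes of the heat shock response, chaperones and their regulators, single members moved in both directions. Of 21 tested, 5 were higher and 6 lower without offsets, where 18% and 21.9% of all genes were, and 4 higher and 2 lower with offsets, where 7.74% and 5.91% of all genes were. HSPA1A, the stress-inducible HSP70, rose from 24.03, 19.5 and 26.7 CPM to 68.3, 98.5 and 119.7 CPM, a log2 FC of 2.02 (SE 0.27, adjusted p = 2.35e-05) without and 1.44 (SE 0.19, adjusted p = 2.3e-05) with offsets. Its neighbour HSPA1B had 67.2, 80.4 and 70.5 CPM at 6 h and 138, 181 and 210.3 CPM at 12 h (log2 FC 1.28 and 0.78). The coding sequences of this pair are nearly identical, so that reads can be shared between them and neither value is certain on its own. HSPB1, the small heat shock protein HSP27, rose from 15.5, 13.04 and 21.5 CPM to 50.1, 63.0 and 80.1 CPM (log2 FC 1.94 and 1.03, adjusted p = 0.000133 with offsets). In all 3 genes every 12 h library lay above every 6 h library.

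The constitutive HSP70 gene HSPA8 moved the other way, from 7447, 6384 and 8214 CPM to 5550.1, 4486 and 4301 CPM. It fell by 0.62 on the log2 scale without and by 0.50 with offsets (adjusted p = 0.00238). HSF1, the main regulator of the response, was higher by 1.16 without offsets but had a log2 FC of −0.02 (adjusted p = 0.95) with them, at a GC content of 65.4%. Its relative HSF2, with a GC content of 40.3%, fell by 0.64 without and by 0.19 with offsets (adjusted p = 0.0121), a call that was lost without A2780cis 6 h replicate 3 (adjusted p = 0.0529) and without 12 h replicate 2 (adjusted p = 0.0712). DNAJA1, a co-chaperone of HSP70, fell by 0.53 without offsets and had −0.10 (adjusted p = 0.353) with them.

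Of 24 genes of cholesterol synthesis and uptake tested, 8 were higher and 7 lower without offsets (median −0.04), against 18% and 21.9% of all genes. With offsets 7 were higher, against 7.74% of all genes, and 2 lower, which is near the 5.91% of all genes (median 0.10). Under library size alone 10 were higher and 3 lower, where 4686 and 1598 of all 20240 genes were. MVK, the mevalonate kinase, rose from 3.42, 3.61 and 3.11 CPM to 8.67, 9.77 and 10.8 CPM, a log2 FC of 1.53 without and 1.138 with offsets (adjusted p = 0.000163). MVD, which decarboxylates mevalonate pyrophosphate, rose from 3.51, 3.11 and 4.99 CPM to 12.0, 13.8 and 17.2 CPM (log2 FC 1.87 and 0.94, adjusted p = 0.000278 with offsets). Both enzymes of the mevalonate pathway were higher in every 12 h library.

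INSIG1, which retains the SREBP complex in the endoplasmic reticulum, rose from 20.0, 21.6 and 21.7 CPM to 29.1, 29.7 and 25.9 CPM. Its GC content is 44.6%, and the log2 FC of 0.42 became 0.74 (SE 0.08, adjusted p = 1.59e-06) with offsets. LSS, which closes the sterol ring, rose by 0.41 with offsets, and this call was lost without A2780cis 12 h replicate 3 (adjusted p = 0.0508).

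Other members of the same pathway did not rise with offsets. FDPS, the farnesyl diphosphate synthase, fell from 262, 234 and 277 CPM to 206, 184 and 187 CPM (log2 FC −0.42 and −0.61, adjusted p = 0.000192 with offsets). SREBF2, the regulator of the pathway, was higher without offsets (log2 FC 0.48) and at 0.01 (adjusted p = 0.981) with them. Of 12 fatty acid synthesis genes, 4 were higher and 4 lower without offsets (18% and 21.9% of all genes) and 3 higher and 2 lower with them (7.74% and 5.91%). The fatty acid synthase gene FASN rose from 67.5, 64.2 and 50.7 CPM to 150.0, 239 and 314 CPM (log2 FC 1.95 and 0.70), its regulator SREBF1 by 1.46 and 0.59, and LPIN1, a phosphatidate phosphatase, by 0.44 and 0.58. All 3 passed the threshold with offsets.

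**Figure D3:**
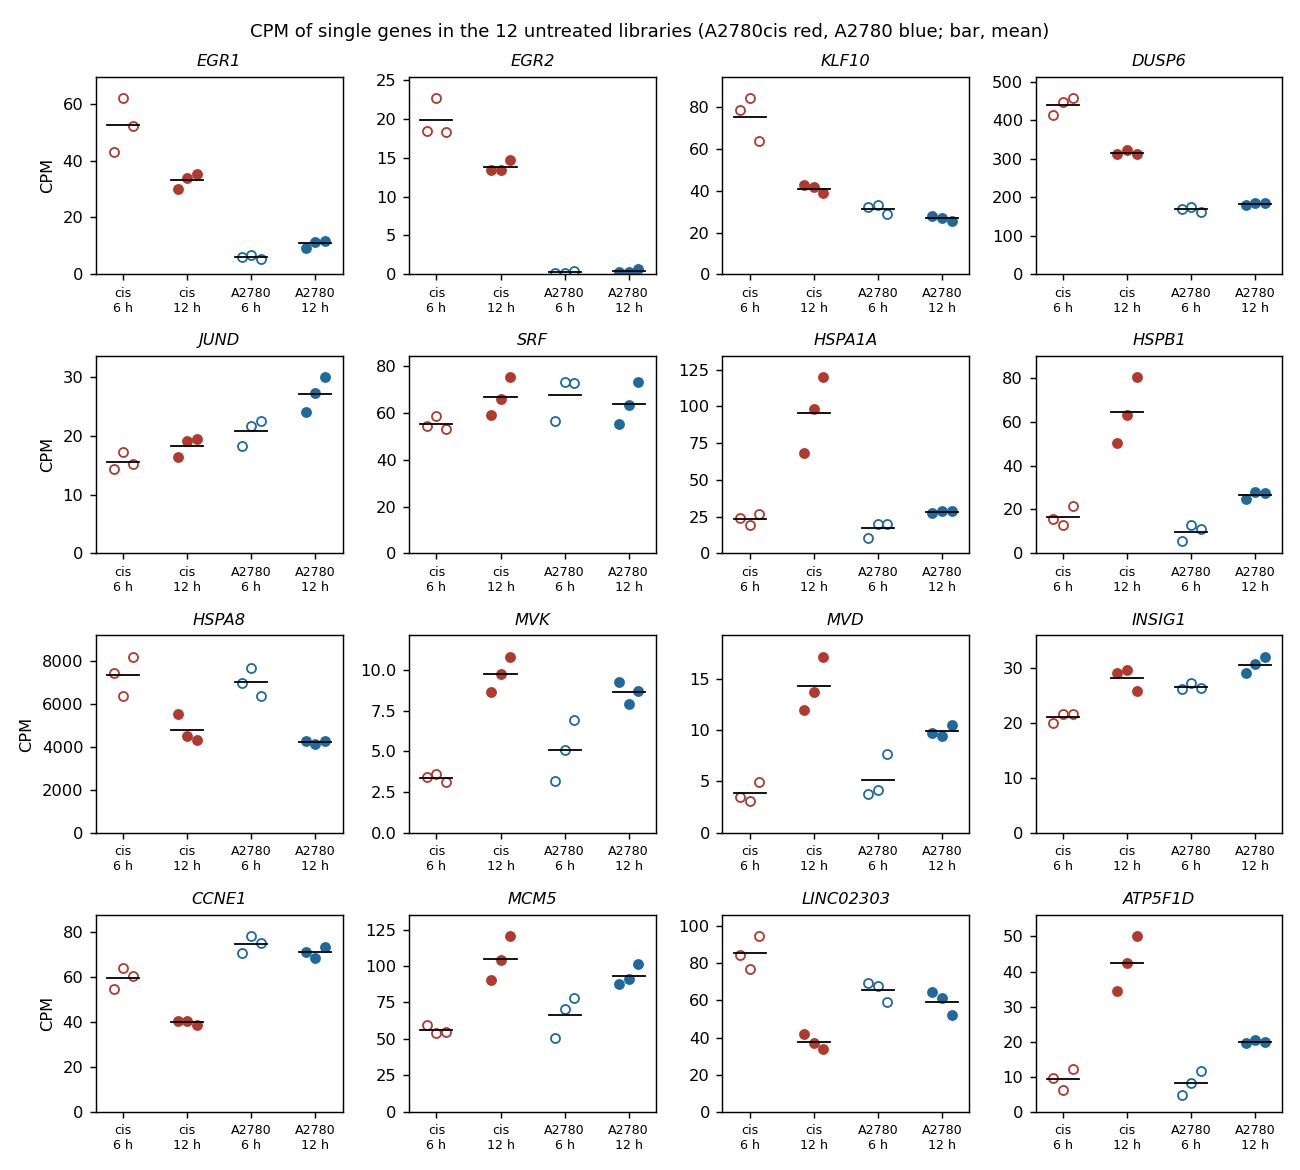
CPM of 16 genes in the 12 untreated libraries, A2780cis in red and A2780 in blue, with open points at 6 h, filled points at 12 h and a bar at the mean of 3 libraries. EGR1 falls in A2780cis from between 43.2 and 62.0 CPM to between 29.9 and 35.3 CPM and rises in A2780 from between 5.27 and 6.72 CPM to between 9.37 and 11.9 CPM.

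The medians of the DNA replication and mitosis lists changed sign with the offsets. DNA replication genes, the enzymes and loading factors of the replication fork, had 9 of 45 members higher and 16 lower without offsets (median −0.11), but 13 higher and 1 lower with offsets (median 0.09) and 16 higher and 4 lower under library size alone. Of all genes 18% were higher and 21.9% lower without and 7.74% and 5.91% with offsets, so that the 9 members higher without offsets lay near the share of all genes. Under library size alone 4686 of all 20240 genes were higher and 1598 lower, so that the 4 members lower there lay near the share of all genes. The mean GC content of the list is 48.6%. MCM5, a subunit of the replicative helicase, rose from 59.8, 53.7 and 54.9 CPM to 90.2, 104 and 121 CPM (log2 FC 0.90 and 0.60, adjusted p = 0.000153 with offsets). POLD1, the catalytic subunit of DNA polymerase delta, rose by 1.81 without and by 0.68 with offsets, and the licensing factor CDT1 by 1.53 and 0.53. RRM2, the small subunit of ribonucleotide reductase, was the member that fell with offsets, from 295, 388 and 324 CPM to 253, 263 and 246 CPM (log2 FC −0.40 and −0.33, adjusted p = 0.0121), and it lost that call without any of 3 libraries (A2780cis 6 h replicates 2 and 3 and 12 h replicate 3, adjusted p between 0.0556 and 0.0723).

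Genes of mitosis and G2/M had 9 of 44 members higher and 7 lower without offsets (median −0.13), 13 higher and 0 lower with offsets (median 0.17), and 11 higher and 1 lower under library size alone. Without offsets the share higher lay near the 18% of all genes and the share lower under the 21.9% of all genes, and with offsets 7.74% of all genes were higher and 5.91% lower. Under library size alone 4686 of all 20240 genes were higher and 1598 lower, so that the 11 members higher there also lay near the share of all genes. Their mean GC content was 45.5%, below the 49.0% of all genes tested. AURKB, a kinase of chromosome alignment, rose from 42.4, 36.4 and 43.7 CPM to 56.0, 56.0 and 65.4 CPM (log2 FC 0.53 and 0.31, adjusted p = 0.00477 with offsets). KIFC1, a mitotic kinesin, rose from 60.8, 52.6 and 55.1 CPM to 76.1, 84.5 and 95.0 CPM (log2 FC 0.60 and 0.37). BIRC5, the survivin gene, went from 114, 111 and 113 CPM to 131, 134 and 131 CPM (log2 FC 0.23 and 0.32, adjusted p = 0.000878 with offsets). These changes were small but without overlap of the groups, and without offsets the call of BIRC5 was lost without a filter, with length offsets and in 4 of the 6 fits without 1 library (A2780cis 6 h replicates 2 and 3 and 12 h replicates 2 and 3), with adjusted p between 0.0530 and 0.0765. CDK1 shows what the offsets do at the other end of the GC scale: with a GC content of 34.9% it was lower without offsets, from 305, 305 and 353 CPM to 265, 230.3 and 208 CPM (log2 FC −0.45), and had a log2 FC of 0.00 with them.

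Among 22 regulators of the G1/S transition, 5 were higher and 5 lower without offsets, near the 18% and 21.9% of all genes, and 3 higher and 4 lower with offsets, against 7.74% and 5.91% of all genes. CCNE1, the cyclin that drives entry into S phase, fell from 54.9, 63.9 and 60.4 CPM to 40.3, 40.6 and 38.6 CPM. The log2 FC was −0.58 without and −0.55 (SE 0.06, adjusted p = 9.03e-06) with offsets, so that its change hardly depended on them at a GC content of 52.2%. CCND2, a G1 cyclin, fell from 759.7, 897 and 823 CPM to 611, 618.2 and 595 CPM (log2 FC −0.44 and −0.30, adjusted p = 0.00225 with offsets). CCNE2 fell by 0.64 without and by 0.23 with offsets (adjusted p = 0.026), a call that was lost in 4 of the 6 fits without 1 library.

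Genes of the extracellular matrix and of integrins, which anchor cells to it, had 11 of 28 members higher and 5 lower without offsets (median 0.32), against 18% and 21.9% of all genes, and 7 higher and 1 lower with offsets (median 0.21), against 7.74% and 5.91%. Without A2780cis 6 h replicate 2 and without offsets the median was 0.59, with 12 higher and 3 lower. LAMA5, a laminin chain, rose from 13.8, 6.82 and 12.7 CPM to 34.2, 49.3 and 69.6 CPM (log2 FC 2.19 and 0.88, adjusted p = 0.00151 with offsets), and COL6A2, a collagen VI chain, from 4.07, 2.91 and 2.54 CPM to 10.0, 12.1 and 15.8 CPM (log2 FC 2.00 and 0.79, adjusted p = 0.00104). Both are rich in GC, at 65.7% and 65.8%. COL6A1, which forms collagen VI together with COL6A2, rose by 1.36 without offsets and had 0.31 (adjusted p = 0.0742) with them.

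Several large housekeeping lists had more members lower than higher without offsets and lost most of these calls with them. The shares of all genes to read them against were 18% higher and 21.9% lower without and 7.74% and 5.91% with offsets. With offsets 9 of 79, 7 of 78 and 2 of 20 members were lower in lists that follow. These counts lay somewhat above the share of all genes, most so for the 9 of 79. Of 79 cytosolic ribosomal protein genes, 12 were higher and 41 lower without offsets (median −0.37) and 3 higher and 9 lower with offsets (median −0.18). The count without offsets rested partly on A2780cis 6 h replicate 3, without which it was 13 higher and 16 lower. Of 78 nuclear genes of oxidative phosphorylation, 12 were higher and 39 lower without (median −0.29) and 11 higher and 7 lower with offsets (median −0.06), and 15 higher and 13 lower without A2780cis 6 h replicate 3 and without offsets. The proteasome genes went from 2 higher and 16 lower of 37 to 0 in either direction, and the endoplasmic reticulum chaperones from 2 higher and 11 lower of 20 to 0 higher and 2 lower.

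The GC-rich members of these lists rose against the rest. Within oxidative phosphorylation, NDUFB7 of complex I (GC content 64.9%) rose from 9.89, 3.91 and 8.59 CPM to 27.9, 28.8 and 34.5 CPM (log2 FC 2.01 and 1.04, adjusted p = 0.000823 with offsets), together with NDUFS7 (1.82 and 0.95) and ATP5F1D. RPS28, a protein of the small ribosomal subunit (GC content 56.8%), rose from 113, 57.5 and 124 CPM to 208, 227 and 282 CPM (log2 FC 1.28 and 0.98). RPL36 (GC content 64.6%) was higher by 0.99 without offsets and had 0.01 with them. Genes for ribosomal proteins have many processed copies in the genome, and since multi-mapping reads were divided among their positions these values are uncertain.

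The 13 protein-coding genes of the mitochondrial genome, which make subunits of the respiratory chain, had 0 members higher and 8 lower without offsets (median −0.33), against 18% and 21.9% of all genes. With offsets 0 were called in either direction (median 0.07), against 7.74% and 5.91% of all genes. Under library size alone 0 were higher and 4 lower, where 4686 and 1598 of all 20240 genes were. MT-CO3, a subunit of cytochrome c oxidase, had 8786, 7333 and 9347 CPM at 6 h and 6559.5, 5439.7 and 5449 CPM at 12 h (log2 FC −0.55, and −0.23 with offsets, adjusted p = 0.0578). The mitochondrial genes together took 6.04% ± 0.18 of the counts at 6 h and 5.22% ± 0.19 at 12 h (SD, n = 3; exact permutation p = 0.1, the smallest possible). This share did not overlap between the times, whereas in A2780 it was 6.16% ± 0.28 and 6.43% ± 0.12.

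Of 22 interferon response genes tested, 6 were higher and 5 lower without offsets, near the 18% and 21.9% of all genes, and 3 higher and 4 lower with offsets, against 7.74% and 5.91%. IFIT1, IFIT2 and IFIT3, neighbouring antiviral genes on chromosome 10, fell by 0.75, 0.84 and 0.72 on the log2 scale without and by 0.40, 0.49 and 0.41 with offsets. IFIT2 had 96.7, 86.1 and 111 CPM at 6 h and 61.5, 52.4 and 50.5 CPM at 12 h. ISG15, a ubiquitin-like protein, rose instead, from 3.33, 1.70 and 3.93 CPM to 9.82, 10.7 and 13.8 CPM (log2 FC 1.91 and 1.05, adjusted p = 0.00254 with offsets).

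Of 19 circadian clock genes, 5 were higher and 1 lower without offsets, against 18% and 21.9% of all genes, and 0 higher and 2 lower with offsets, near the 7.74% and 5.91% of all genes. PER1, a repressor of the clock, rose from 19.1, 20.5 and 15.7 CPM to 32.5, 39.8 and 48.4 CPM without offsets (log2 FC 1.13) and had 0.24 (adjusted p = 0.0858) with them. NR1D1, a nuclear receptor of the clock, had 0.71 without and 0.21 (adjusted p = 0.267) with offsets. The casein kinase gene CSNK1D changed sign, from 0.36 to −0.36 (adjusted p = 0.00118).

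**Figure D4:**
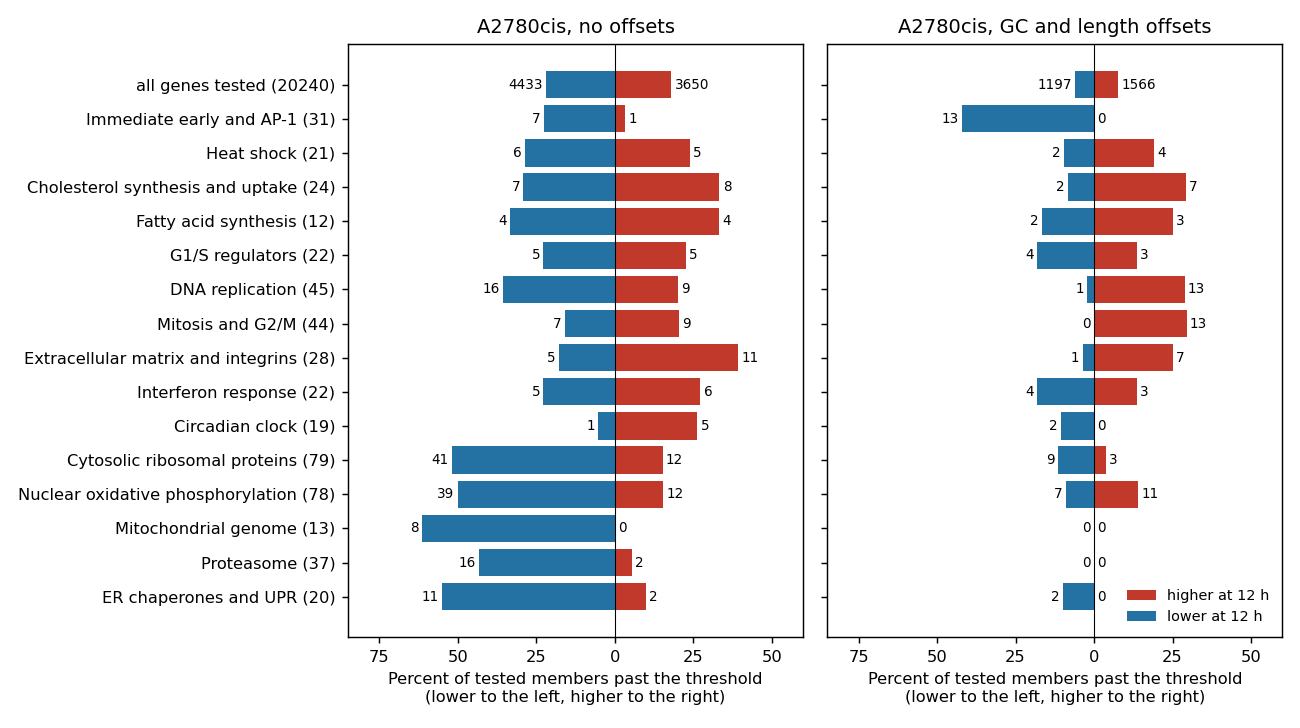
Percent of the tested members of 15 gene lists, and of all genes, that were higher (red, to the right) or lower (blue, to the left) at 12 h in A2780cis, without offsets (left) and with GC and length offsets (right). Numbers at the bars count genes and numbers in brackets the members tested. With offsets the immediate early genes have 13 members lower and 0 higher, and the mitosis genes 13 higher and 0 lower. Without offsets, scaling by library size alone gave 4 higher and 4 lower, and 11 higher and 1 lower, respectively. Under that scaling 4686 of all 20240 genes were higher and 1598 lower, so that the 11 mitosis genes higher lay near the share of all genes.

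Untreated A2780 cells, compared in the same way, had 5435 genes past the threshold (26.9%), 3354 higher (16.6%) and 2081 lower (10.3%), and 2946 (14.6%) with offsets. Without A2780 6 h replicate 1, the untreated library with the lowest GC contrast, the number without offsets was 1846, and without A2780 12 h replicate 3 it was 2324. Across all genes the log2 FC of A2780cis and A2780 had a Spearman's rho of 0.65 without and 0.41 with offsets. With offsets 1103 genes were called in both lines, 1087 of them in the same direction, which is 39.3% of the calls of A2780cis and 36.9% of those of A2780. Whether the lines were cultured side by side is not given in the sources used here.

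A test of the difference between the lines called 6 genes (0.0296%) without offsets, all with a lower log2 FC in A2780cis, and 1798 at an unadjusted p under 0.05. With GC and length offsets it called 95 genes (0.469%), 18 higher and 77 lower in A2780cis. The 6 genes were EGR1, LINC02303, CTH, DKK1, KDM5B and SLC2A3. EGR1 moved in opposite directions: in A2780 it rose from 5.89, 6.72 and 5.27 CPM to 9.37, 11.2 and 11.9 CPM (log2 FC 0.87, adjusted p = 0.000656), and the difference between the lines was −1.53 (SE 0.19, adjusted p = 0.000394). At both times every A2780cis library lay above every A2780 library.

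LINC02303 had similar levels at both times in A2780, with 69.6, 68.03 and 59.4 CPM at 6 h and 64.7, 61.6 and 52.1 CPM at 12 h (log2 FC −0.15, adjusted p = 0.339, and 0.23, adjusted p = 0.0238, with offsets), and its difference between the lines was −1.05 (adjusted p = 0.00481), which was lost without A2780 12 h replicate 1 (adjusted p = 0.115). CTH, which makes cysteine from cystathionine, fell in A2780cis from 30.9, 29.3 and 28.3 CPM to 20.4, 19.3 and 19.3 CPM and rose in A2780 from 4.02, 4.16 and 3.64 CPM to 4.62, 5.27 and 5.45 CPM. Its log2 FC in A2780cis, −0.58 without offsets, was −0.19 (adjusted p = 0.173) with them, and in A2780 it was 0.38 and 0.69. KDM5B, a histone demethylase, likewise fell by 0.40 in A2780cis without offsets and had −0.13 (adjusted p = 0.242) with them, and it missed the threshold with library size alone (adjusted p = 0.106) and when the compared libraries were fitted alone (adjusted p = 0.0548). DKK1, a secreted inhibitor of Wnt signalling, fell in A2780cis from 305, 285 and 334 CPM to 210.1, 192 and 189 CPM and lay between 91.6 and 105 CPM in all A2780 libraries (log2 FC −0.65 and 0.03, and −0.29 and 0.30 with offsets). The differences between the lines were −0.96 for CTH, −0.68 for DKK1, −0.76 for KDM5B and −0.58 for the glucose transporter SLC2A3, with adjusted p between 0.0337 and 0.0474. These 4 calls were lost with another estimate of the size factors (RLE) and in most fits without 1 library.

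The immediate early list differed between the lines in count as well. In A2780, 8 of 31 members were higher and 0 lower without offsets, against 16.6% and 10.3% of all genes. There 4 were higher and 1 lower with offsets, against 10.9% and 3.62% of all genes. With offsets 6 members had a lower log2 FC in A2780cis than in A2780 past the threshold of the difference, against 0.38% of all genes, and 0 members a higher one, against 0.0889%. Of 44 mitosis genes, 13 were higher in A2780cis and 18 in A2780 with offsets (7.74% and 10.9% of all genes), with 0 lower in either.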

How the data were processed

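RNA from untreated A2780cis cells at 6 h and 12 h (3 libraries each) was analysed within the table of all 24 libraries in 8 groups. The deposited values are expected counts. According to the methods, the authors prepared stranded total RNA libraries, trimmed the reads, aligned them with STAR 2.5.2b to GRCh38.p7 and counted them on exons with featureCounts, dividing reads with several positions and allowing reads that overlap several genes. The strand setting is not given in the sources used here, so overlapping and antisense genes cannot be told apart. Between the 6 libraries, 9.50% to 12.1% of the entries were not whole.

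Counts were rounded, filtered with filterByExpr (minimum count 10, minimum total 15), scaled by TMM and fitted in R 4.3.3 with edgeR 4.0.16, whose quasi-likelihood test, two-sided with Benjamini-Hochberg adjustment, gave all adjusted p-values (1 coefficient per group, 16 residual degrees of freedom, threshold 0.05). GC content and exon length came from GENCODE release 44 for 19889 of 20240 genes tested. Offsets were splines with 5 degrees of freedom per library. On simulated counts for this comparison, 181 of 200 genes changed by 1 on the log2 scale were recovered and 11 of 18969 unchanged genes were called. A simulated GC trend raised these false calls to 6912 of 19027 without offsets and left 11 of 19015 with them. That trend was linear in GC content and identical in the 3 libraries of A2780cis at 12 h, a form that the offsets remove by construction. The measured GC contrasts of these libraries differed (0.30, 0.72 and 1.04), so the share of false calls with offsets in the data themselves was not tested.

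Genes named are the 15 largest increases and decreases (3 for lncRNA genes) at a mean log2 CPM of at least 2 without overlap of the groups, up to 4 members per list with the smallest p, all members of 5 lists, and 6 genes that differ between the lines. Other members named in the text, and the split by exon blocks, were added after their values were seen, and a few members are not reported here. The comparison, its 43 gene lists and these rules were chosen with earlier results of these data known. Alternatives (DESeq2 1.42.0, other scalings and filters, thinning, offsets, a replicate block and leaving out each library) are given in the closing section. The edgeR p-values measure the change against the spread between replicate cultures within a group, estimated over all 8 groups and not over the A2780cis controls alone. RefSeq promoters (GRCh38.p14) were matched by symbol for 12062 tested genes.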

Additional observations from a re-analysis of the deposited data

Results flagged for a closer look

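The change from 6 h to 12 h differed between A2780cis and A2780 for 6 genes by a test of the difference itself in edgeR, adjusted over all genes. EGR1 had a difference in log2 FC of −1.53 (adjusted p = 0.000394). For this gene all 12 h libraries of A2780cis lay below, and all of A2780 above, every 6 h library of the same line. LINC02303 had a difference of −1.05 (adjusted p = 0.00481), CTH of −0.96 (adjusted p = 0.0337), KDM5B of −0.76 (adjusted p = 0.0474), DKK1 of −0.68 (adjusted p = 0.0337) and SLC2A3 of −0.58 (adjusted p = 0.0438). The log2 FC in A2780cis and in A2780 was −0.58 and 0.38 for CTH, −0.40 and 0.36 for KDM5B, −0.65 and 0.03 for DKK1, −0.56 and 0.02 for SLC2A3, and −1.19 and −0.15 for LINC02303. With GC and length offsets the changes in A2780cis became −0.19 for CTH (adjusted p = 0.173) and −0.13 for KDM5B (adjusted p = 0.242), which lost their call, and −0.29 for DKK1, −0.35 for SLC2A3 and −0.75 for LINC02303, and those in A2780 became 0.69, 0.55, 0.30, 0.14 and 0.23 in the same order. The difference itself stayed past its threshold with these offsets for all 6 genes.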

How the results depend on the processing

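The number of genes called in A2780cis (8083) fell to 2656 with GC offsets, to 2763 with GC and length offsets and to 2804 with a replicate block and both offsets, because the trend on GC content is removed by construction. It stayed between 6284 and 8365 under the other alternatives, and the share of genes called higher was 45.2% as reported, 74.6% with library size alone, 59.4% without a filter on low counts, 58.2% after thinning to the shallowest library and 61.8% when the compared libraries were fitted alone. Leaving out 1 library gave 4985 to 8421 genes, and, with both offsets (chosen after seeing the data), 2119, 2694 and 1881 without 6 h replicate 1, 2 or 3 and 2698, 1733 and 1359 without 12 h replicate 1, 2 or 3. A2780 (5435) had 2941, 2946 and 2968 genes under the same 3 alternatives and 1846 to 5697 without 1 library. The difference between the lines (6) had 2 genes with RLE size factors, 145 without a filter, 56 with GC offsets, 15 with length offsets, 95 with both, 77 with a block and both, 2 when fitted alone, 39 with DESeq2 (39 by a Wald test) and 1 to 6 without 1 library, and the cause was not tested.

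The replicate numbers did not pair the samples (same-number correlations of −0.19, 0.32 and −0.10 in A2780cis), and a replicate block alone gave 8365, 5936 and 8 genes and changed no call among 117 genes named. With both offsets 22 of these genes kept their sign but lost their call, and 9 changed sign. Of the 9, JUND, IER2, SRF and CSNK1D passed the threshold with both offsets. HSF1, IDI1, CDC25B, CDK1 and CSNK1E did not. Reversed values, with GC offsets, both offsets and a block with both, were −1.12, −1.08 and −1.09 for JUND, −0.72, −0.69 and −0.69 for IER2, −0.44 in each for SRF, 0.17, 0.20 and 0.20 for IDI1, −0.26, −0.36 and −0.36 for CSNK1D, −0.048, −0.12 and −0.12 for CSNK1E, and −0.016, −0.0019 and −0.0010 for CDC25B. HSF1 had −0.015 with both offsets and with the block, CDK1 0.0027 and 0.0040, RPL36 −0.031 with GC offsets, IDI1 0.028 with library size alone, and IER2 between −0.036 (without A2780cis 12 h replicate 3) and 0.21 without 1 library. The 12 h libraries were deeper than the 6 h ones, and at a common depth 6668 genes were called.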

Other observations

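Lists not described above moved as follows in A2780cis, given as members higher and lower without offsets and then with GC and length offsets. Over all genes the shares higher and lower were 18% and 21.9% without and 7.74% and 5.91% with offsets. The targets of ATF4, which answer amino acid shortage, had 9 higher and 8 lower of 31, then 1 higher and 5 lower. The p53 targets had 6 higher and 7 lower of 30, then 2 higher and 2 lower, which lies near the shares of all genes in each case. Glycolysis genes had 6 higher and 3 lower of 21, then 4 higher and 3 lower. PFKFB4, which makes an activator of glycolysis, rose from 4.53, 4.31 and 3.76 CPM to 7.22, 7.52 and 8.26 CPM (log2 FC 0.87 and 0.55, adjusted p = 0.00459 with offsets by edgeR). The aldolase gene ALDOA rose from 185, 164 and 188 CPM to 288, 335 and 365 CPM (log2 FC 0.88 and 0.48).

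Ribosome biogenesis genes had 9 higher and 17 lower of 38, then 4 higher and 11 lower. NIP7, a factor of large subunit assembly, fell from 185, 174 and 184 CPM to 129.5, 112 and 102 CPM (log2 FC −0.66 and −0.50, adjusted p = 0.000283 with offsets by edgeR), while BOP1 of the same process (GC content 65.2%) rose by 1.67 and 0.57. The splicing factors had 8 higher and 19 lower of 37, then 6 higher and 1 lower, and the zinc finger genes of chromosome 19 had 19 higher and 85 lower of 215, then 8 higher and 15 lower. Under library size alone the splicing factors had 10 higher and 9 lower, where 4686 and 1598 of all 20240 genes were, so that the 10 higher lay near the share of all genes.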
